A study of Homo sapiens and Mus musculus and synthetic construct with 31 samples.

Results

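The sequences described here are 136 of the 15156 designed sequences of a massively parallel reporter assay (MPRA), 77 from human and 59 from mouse. Each is a 144-base stretch around a transcription start site (TSS), read in the direction of transcription, that carries the letters TATAA with their first base at position 75 to 95. They are members of the 6774 TSS-overlapping sequences (tile 1), in which the TSS lies 29 bases before the last base on the plus strand and 30 on the minus strand. No member shares a locus with another. The rule reads sequence and position and no activity, although it was chosen with earlier results of these data known. Of the 136, 121 were measured (69 human and 52 mouse), which means that at least 50% of their 13 designed barcodes had 10 or more DNA counts. They were compared mainly with the 173 tile 1 sequences that hold TATAA elsewhere only (98 human and 75 mouse, 166 measured), with the tile 1 sequences that hold none (5573 measured), and with 1619 random sequences (1604 measured).

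The library was transfected into HUES64 human embryonic stem cells (hESCs), a line grown without feeders in mTeSR1, and into mouse embryonic stem cells (mESCs) grown in 2i medium. Each cell type had 3 passages, with 3 transfections per hESC passage and 1 per mESC passage, and all were set against 1 sequencing library of the plasmid DNA. The lines also differ in medium and transfection reagent, so the species of the cell cannot be told apart from these. Both lines were untreated apart from the transfected library, and 18 RNA-seq libraries of transfected and untransfected cells gave gene levels. The replicate is the passage, and nothing in the labels says that passages were grown from separate thaws, so the errors cover the spread between passages of 1 line. The study's supplement describes cloning with and without a minimal promoter that itself holds a TATA box, and which pool was transfected was not stated.

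MPRA activity is the RNA counts of a sequence summed over its barcodes, divided by the summed DNA counts and scaled so that the median random sequence is 1 in each passage. A sequence was called active when it lay above the 95th percentile of the random sequences in all 3 passages of a cell type, which was 2.16 to 2.41 in hESCs and 1.88 to 2.33 in mESCs. The DNA library held 98438176 counts in the designed barcodes, the hESC passages 202239931 to 283746017 and the mESC passages 84919712 to 117103221. The 3 libraries of hESC passage 1 stood apart, with correlations of 0.775 to 0.839 over barcodes with every other RNA library, against 0.872 to 0.892 among the other hESC libraries. Results without that passage are given beside those that rest on it. The RNA-seq markers matched the labels: 5 of 5 pluripotency genes were above 1 CPM (counts scaled to the library total) per kilobase in both lines, 3 of 3 primed-state genes in hESCs (2 of 3 in mESCs) and 4 of 4 naive-state genes in mESCs (2 of 5 in hESCs). Of a list of 5 fibroblast or feeder genes, 3 were above 1 in hESCs (THY1 at a median of 102, COL1A1 at 17.9 and COL1A2 at 7.19, with COL3A1 at 0.01 and LUM at 0), and 0 of 5 in mESCs, where the highest median was 0.51. Their part in the results was not tested.

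The TATA box is a core promoter element bound by the TATA-binding protein (TBP), the DNA-contacting subunit of the general factor TFIID. TBP binding bends the DNA and, with TFIIB, helps to place RNA polymerase II so that transcription begins a fixed distance downstream. Only a minority of mammalian promoters hold one, and many of those serve tissue-specific, stress-responsive, histone or highly transcribed genes, whereas most housekeeping promoters start within CpG islands without it.

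The sequences with the highest activity in the cell type of their own species (the native cell type) are shown first, because they carry the top of the members' activity range. In each, the capitals mark TATAA at base 75 to 95, CCAAT or its reverse ATTGG (the letters bound by NF-Y), and GGGCGG or its reverse CCGCCC (the core of the site bound by SP1). The bases are given up to the TSS on the plus strand and to 1 base past it on the minus strand. SNHG5 is the host gene of small nucleolar RNAs, RPL22L1 and RPLP0 encode ribosomal proteins, and H4C16 encodes histone H4.
SNHG5 (hg19, chr6:86388450-86388564, minus strand): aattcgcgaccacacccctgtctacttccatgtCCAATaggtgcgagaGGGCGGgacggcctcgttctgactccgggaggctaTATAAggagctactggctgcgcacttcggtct
Snhg5 (mm9, chr9:88417725-88417839, minus strand): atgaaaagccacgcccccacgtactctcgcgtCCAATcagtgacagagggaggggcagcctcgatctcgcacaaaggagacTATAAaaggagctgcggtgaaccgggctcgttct
RPL22L1 (hg19, chr3:170587983-170588097, minus strand): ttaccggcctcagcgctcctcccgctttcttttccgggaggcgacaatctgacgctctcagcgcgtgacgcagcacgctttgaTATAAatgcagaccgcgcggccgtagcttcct
Rpl22l1 (mm9, chr3:28704319-28704433, plus strand): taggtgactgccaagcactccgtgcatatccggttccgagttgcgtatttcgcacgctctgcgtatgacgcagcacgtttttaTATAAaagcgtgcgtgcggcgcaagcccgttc
RPLP0 (hg19, chr12:120638909-120639023, minus strand): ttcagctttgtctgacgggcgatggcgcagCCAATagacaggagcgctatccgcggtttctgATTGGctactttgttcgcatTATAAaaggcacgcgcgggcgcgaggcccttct
H4C16 (hg19, chr12:14924064-14924178, minus strand): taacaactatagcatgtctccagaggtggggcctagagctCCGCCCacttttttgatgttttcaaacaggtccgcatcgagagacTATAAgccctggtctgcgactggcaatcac

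The members that follow were among those with the lowest native activity, and are shown over the last 45 of these bases so that the box can be lined up with those above. Capitals mark TATAA alone. The names beginning with h. or m. are those of the design list, given where no transcript start lay within 500 bases on the same strand.
h.1186 (hg19, chr14:61822630-61822674, minus strand, in an intron of PRKCH on its opposite strand): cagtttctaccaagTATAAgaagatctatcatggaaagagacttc
h.1330 (hg19, chrX:30675994-30676038, minus strand, in an intron of GK on its opposite strand): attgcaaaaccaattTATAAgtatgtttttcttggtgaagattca
m.480 (mm9, chrX:21322236-21322280, minus strand, between genes): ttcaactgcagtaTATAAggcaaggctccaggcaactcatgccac

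The box sat where core promoters hold it more often than anywhere else in tile 1. Over the 6774 sequences, 117 TATAA starts fell at bases 81 to 90, against 7 to 23 in each of the other 10-base bins. The most used starts were base 85 with 25 sequences and base 86 with 24. The median member began 30 bases upstream of the TSS in human and 29 in mouse, and 99 of the 121 measured members started at base 82 to 88. No such peak stood in tile 2, the upstream tile of the same TSS, where the bin of bases 81 to 90 held 16 starts and the others 18 to 35, nor in the random sequences, with 12 in that bin and 11 to 20 in the others. Of the human members, 44.2% lay at the start of a protein-coding gene (34 of 77), and of the mouse members 50.8% (30 of 59). The share was 14.3% and 14.7% among sequences with TATAA elsewhere, and 32.6% and 31.6% over tile 1. GC content lay between that of the other classes, with a median of 52.8% in human members, against 44.4% with TATAA elsewhere and 60.4% without it. The mouse medians were 55.2%, 49.3% and 59.03%.

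Activity ran from the level of the random sequences to the highest values of tile 1. SNHG5 had an activity of 54.5, 59.7 and 76.0 in the 3 hESC passages, and the 3 mESC passages gave 38.1, 33.7 and 51.5. Its mouse ortholog Snhg5 gave 51.3, 54.6 and 64.2 in hESCs and 38.98, 38.8 and 53.0 in mESCs. Both were the highest tile 1 sequences of their species in both cell types, and their passages overlapped between species within each cell type. RPL22L1 gave 38.0, 39.2 and 41.5 in hESCs and 24.9, 21.5 and 29.3 in mESCs. Rpl22l1 gave 25.1, 28.8 and 29.4 in hESCs and 31.8, 27.0 and 37.4 in mESCs. RPL22L1 was higher in every hESC passage than in any mESC passage, whereas the passages of Rpl22l1 overlapped. RPLP0, the acidic stalk protein of the large ribosomal subunit, gave 19.9, 21.0 and 23.4 in hESCs and 16.7, 15.8 and 18.03 in mESCs. H4C16 gave 19.3, 21.2 and 19.9 in hESCs and 7.24, 5.63 and 6.77 in mESCs, with no overlap.

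The next members were genes of several kinds. Slc2a1, the glucose transporter GLUT1, gave 15.4, 15.4 and 21.7 in mESCs. Errfi1, a feedback inhibitor of the EGF receptor, gave 10.2, 10.4 and 14.2 there. Ier5, an immediate early gene, gave 10.4, 10.4 and 11.8. UHRF2, a ubiquitin ligase that binds modified DNA and histones, gave 8.88, 10.5 and 9.28 in its native hESCs, which overlap those of Ier5 in mESCs. In all, 9 of the 121 members had a native activity over 10 and 20 had one over 5. At the other end, 20 lay under 1 and 49 between 1 and 2. The human members with the lowest native activity were h.1330 (0.490, 0.714 and 0.647), h.1186 (0.714, 0.723 and 0.829) and h.3543 (0.778, 0.701 and 0.836). In mouse, m.480 gave 0.954, 0.836 and 0.543, m.3366 gave 0.669, 0.821 and 0.874, and m.1320 gave 0.184, 0.344 and 0.0361. These are at or below the median random sequence although each holds TATAA at base 84 to 92. The value of m.1320 rests on 476 DNA counts in 7 barcodes, the fewest DNA counts of a mouse member.

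The share of active members was close to that of tile 1 as a whole in each combination of species and cell type. In hESCs 26 of the 69 human members were active (37.7%), beside 34.3% of all human tile 1 sequences, and 19 were active in mESCs (27.5%), beside 26.1%. Of the 52 mouse members, 21 were active in hESCs (40.4%), beside 35.5%, and 15 in mESCs (28.8%), beside 29%. All 34 members active in mESCs were also active in hESCs, and 13 were active in hESCs alone. Of the sequences with TATAA elsewhere, 12.6% of the human ones were active in hESCs and 9.47% in mESCs, and 15.5% of the mouse ones in hESCs and 7.04% in mESCs. Of the 50 measured members at protein-coding genes, 25 were active in their native cell type. Of the 22 at other annotated genes 8 were, and of the 49 near no transcript start 8. The same shares were not counted over all tile 1 sequences by gene type. Across its library the paper reports the highest activity for the TSSs of mRNAs and the lowest for those of enhancer RNAs.

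The class medians are given by passage. The median activity of human members was 1.65, 1.54 and 1.67 in the hESC passages, against 1.16, 1.15 and 1.10 for TATAA elsewhere and 1.69, 1.75 and 1.73 without TATAA. In mESCs the members gave 1.57, 1.31 and 1.49, against 1.14, 1.12 and 1.09 elsewhere. Mouse members gave 1.79, 1.48 and 1.46 in mESCs, against 1.23, 1.17 and 1.19 elsewhere and 1.49, 1.41 and 1.501 without TATAA. In hESCs they gave 2.14, 1.93 and 1.91, against 1.39, 1.25 and 1.27. Members were above the elsewhere class in all 12 combinations of sequence species and passage, by 1.16 to 1.55 times. Their ratio to the class without TATAA ran from 0.878 to 1.24. Both species were read in the same passages, 3 per cell type.

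Whether these differences stood once base composition was taken into account was tested in a linear model of log2 activity on GC content, CpG content, TATAA at base 75 to 95, TATAA elsewhere and the reverse letters TTATA at base 75 to 95. The model was fitted to the 2943 human or 2917 mouse tile 1 sequences, with standard errors clustered by locus and p adjusted over the 4 combinations. Human members exceeded the elsewhere class by 0.35 on the log2 scale in hESCs (SE 0.15, 95% interval 0.05 to 0.65, adjusted p = 0.047) and by 0.29 in mESCs (SE 0.14, interval 0.02 to 0.57, adjusted p = 0.047). Mouse members exceeded it by 0.38 in hESCs (SE 0.17, interval 0.04 to 0.71, adjusted p = 0.047) and by 0.34 in mESCs (SE 0.18, interval -0.02 to 0.69, adjusted p = 0.062). The difference was positive in each of the 12 combinations of sequence species and passage, between 0.23 and 0.46. These calls did not stand under other forms of the composition terms. With squared GC and CpG terms the 3 called differences were 0.18, 0.14 and 0.27 (adjusted p = 0.313, 0.317 and 0.313), and among sequences of at most 60% GC they were 0.22, 0.21 and 0.21 (adjusted p = 0.341, 0.341 and 0.383). Without hESC passage 1 the adjusted p was 0.069 for both hESC differences (0.35 human and 0.32 mouse), and without mESC passage 1 or 3 that for human sequences in mESCs was 0.057 or 0.052 (0.29 and 0.27).

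Against sequences with no TATAA at all, the members were not shown to differ. The model gave 0.17 for human members in hESCs (interval -0.10 to 0.45), 0.13 in mESCs (-0.13 to 0.38), and for mouse members 0.19 in hESCs (-0.11 to 0.49) and 0.08 in mESCs (-0.25 to 0.42), with adjusted p of 0.43 to 0.62. The elsewhere class was lower than sequences without TATAA, by -0.17 for human sequences in hESCs (adjusted p = 0.034), -0.17 in mESCs (0.027), -0.19 for mouse sequences in hESCs (0.038) and -0.25 in mESCs (0.0051). The difference between members and the elsewhere class in the fit is therefore a positive term that did not pass the test minus a negative one that did. Fitted to each passage alone, the elsewhere term was negative in all 12 fits, with an unadjusted p of 0.056 for human sequences in hESC passage 2 and of 0.051 and 0.056 for mouse sequences in hESC passages 1 and 2. The term of the members ran from -0.03, for mouse sequences in mESC passage 3, to 0.28. Both single terms were fitted with linear GC and CpG terms only.

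The same letters at the same bases were also followed in tile 2 and in random sequences, which do not hold the annotated TSS. In the genome a TSS does lie downstream of tile 2. The paper found some upstream tiles to be the more active ones in both species. It names a slightly misplaced TSS annotation as the likely reason. In tile 2, 49 sequences held TATAA at base 75 to 95. Their difference from tile 2 sequences with TATAA elsewhere was 0.21 in hESCs and 0.16 in mESCs for human, and 0.17 and -0.0041 for mouse, with adjusted p of 0.39 to 0.97. Among random sequences 24 measured ones held the box there, whose median was 0.95 in hESCs and 0.94 in mESCs, and 0 of the 24 were active in either cell type, which allows a share of up to 12.5%, beside 43 and 21 of all 1604. The random sequence with the box and the highest mean activity is shown in full.
random sequence 1: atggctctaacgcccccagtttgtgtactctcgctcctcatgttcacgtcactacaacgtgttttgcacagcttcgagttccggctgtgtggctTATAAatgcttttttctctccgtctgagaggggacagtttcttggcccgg
It gave 2.24, 1.69 and 1.89 in hESCs and 1.28, 1.07 and 1.12 in mESCs, with the box at base 95. The second, with the box at base 76, averaged 1.54 ± 0.19 over the hESC passages and 1.45 ± 0.22 over the mESC passages (SD, n = 3), and the third, with the box at base 89, 1.39 ± 1.21 and 1.10 ± 0.13. Against random sequences with TATAA elsewhere the difference was -0.11 in both cell types (intervals -0.32 to 0.11 in hESCs and -0.30 to 0.08 in mESCs, adjusted p = 0.33). A random sequence has 3 designed barcodes, so its values are less precise than those of a TSS sequence.

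Activity varied with the exact place of the box within the window. The 99 members with a start at base 82 to 88 had a median native activity of 1.86, and 39 of them were active in their native cell type (39.4%). The 14 that started at base 75 to 81 had a median of 1.38, and 0 were active, which allows up to 21.4%. The 9 that started at base 89 to 95 had a median of 1.15, and 2 were active, m.3356 and m.272, named after their values were seen (1 member holds 2 starts and is counted in both bins). Median GC content differed between these bins, at 54.9%, 41.3% and 41.0%. Outside the window no bin reached the median of bases 82 to 88: the highest was 1.496, for 30 sequences with a start at base 30 to 44. These bins are a description, with no test.

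Sequences with little GC were near background with and without the box. Up to 45% GC, the 22 human members had a median of 1.04 in hESCs with 1 active, the 48 elsewhere sequences 1.06 and the 338 without TATAA 1.07. From 55% to 65% GC, the 15 human members had a median of 4.40 and 12 were active (80%), against 1.61 and 2 of 12 elsewhere, and 1.99 and 40.6% without TATAA. Above 65% GC the 8 human members had a median of 4.14 with 6 active, against 2.72 without TATAA and 6.75 for the 3 sequences with TATAA elsewhere. The mouse members in mESCs spread less: 1.04 up to 45% GC (9 sequences, 0 active), 2.05 from 55% to 65% (15 sequences, 6 active, against 1.54 elsewhere and 1.63 without) and 3.00 above 65% (11 sequences, 6 active, against 1.89 and 2.24).

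The letters beside the box went with activity as well. CCAAT, in either orientation, was found in 32 members (26.4%, against 21.2% of tile 1), with a median native activity of 3.53 against 1.36 in the 89 members without it. GGGCGG in either orientation was found in 28 members (23.1%, against 30.9% of tile 1), with medians of 3.44 and 1.38. The median GC content was 53.5% in both CCAAT groups, and 62.2% with GGGCGG against 50.7% without. With 0, 1 and 2 of these motifs the members' medians were 1.22 (71 members), 2.94 (40) and 6.84 (10), and 12, 22 and 7 of them were active (16.9%, 55% and 70%). Over tile 1 the medians were 1.24, 2.06 and 5.07, and 16.4%, 41.2% and 72.4% were active. CCGGAAG, the letters bound by ETS factors and counted as the third motif, was in 0 of the 121 members and in 6.84% of tile 1, where such sequences had a median of 7.34. SNHG5 holds CCAAT at base 34 and GGGCGG at base 49, while RPL22L1 and Rpl22l1 hold none of these, so these exact letters were not shared by all of the highest members. RPLP0 holds CCAAT at base 31 and ATTGG at base 63, and h.1330, the human member with the lowest native activity, holds CCAAT at base 80.

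The base after TATAA and the bases at the TSS also varied. TATAAA was the form of 72 members, with a median of 2.12 and 31 active (43.1%). TATAAG was the form of 26, with a median of 1.53 and 8 active, and TATAAT of 12, with 1.26 and 2 active. TATAAC was the form of 11, with 1.30 and 0 active, which allows up to 27.3%. Median GC content also differed between these forms, at 53.8%, 55.6%, 40.3% and 50.7% in this order. A pyrimidine before a purine at the TSS, the usual initiation dinucleotide, was held by 68 members (56.2%, against 59.6% of tile 1). Their median was 2.18 against 1.12 in the other 53, and their median GC content was 58.0% against 47.2%. Over tile 1 the medians were 1.81 with this dinucleotide at the TSS and 1.32 without it. The 2 SNHG5 sequences and Rpl22l1 instead held TC there and RPL22L1 held CC.

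Among sequences with TATAA elsewhere, single ones were strong. TERC, the RNA component of telomerase, holds TATAA at base 68 and CCAAT at base 38.
TERC (hg19, chr3:169482829-169482943, minus strand): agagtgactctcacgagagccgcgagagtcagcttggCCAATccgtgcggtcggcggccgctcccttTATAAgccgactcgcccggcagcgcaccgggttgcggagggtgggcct
It gave 7.78, 9.66 and 10.5 in hESCs and 12.4, 11.8 and 16.0 in mESCs. The annotated start of TERC lies 18 bases upstream of the TSS of the tile. The box is therefore nearer to the annotated start than its base number in the tile implies. Counted from the annotated start, it would fall within the window that defines the members. ENSG00000273102, with the box at base 18, gave 7.11, 7.88 and 8.66 in hESCs. In mESCs Cox10, a heme A synthesis enzyme, gave 17.1, 12.9 and 19.3 with the box at base 45, and Ddx39, an RNA helicase, gave 5.02, 4.78 and 5.47 with the box at base 16. All 4 lay above the median member of their species in the native cell type.

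The TSS-overlapping tile was compared with the upstream tile of the same TSS, which ends before base 75 of tile 1 and so lacks the box. Human members had a median log2 ratio of tile 1 to tile 2 of 0.36, 0.38 and 0.52 in the 3 hESC passages (65 TSSs), and 42 of 65 had the higher value in tile 1. Mouse members had 0.46, 0.33 and 0.28 in mESCs (48 TSSs), with 32 of 48 higher. TSSs with TATAA elsewhere gave 0.05 in human (hESCs) and 0.09 in mouse (mESCs) from mean activities, and those without TATAA 0.33 and 0.27, beside 0.33 and 0.29 for the members.

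Trans effects, the change of the same sequence between cell types, were called with edgeR's quasi-likelihood test over all 13469 measured sequences. Of the 121 members 27 were lower in mESCs, beside 17.6% of all sequences, and 3 were higher, beside 4.57%. By species 15 human and 12 mouse members were lower (21.7% and 23.1%, beside 24.8% and 22.9% of their tile 1), and 2 and 1 were higher. The members' median log2 ratio of mESCs to hESCs was -0.18, against -0.09 over all sequences. Scaling by TMM in place of the random sequences moved the median of all sequences by 0.14, to 0.05, and left 21 members lower and 6 higher, so that 77.8% of the members' calls in place of 90% were lower. Over all sequences the lower share of calls moved from 79.4% to 58.4% (1650 lower and 1176 higher with TMM). The members' median lay 0.09 below that of all sequences under both scalings. Against tile 1 alone it was closer, at -0.18 in human members beside -0.15, and -0.16 in mouse members beside -0.12. Without hESC passage 1, 24 members were called, 23 of them lower. In 29 of the 30 called members the passages of the cell types did not overlap, which the call itself favours. Of all 121 members, 45 had no overlap, and the share over all sequences was not counted. In the model of the log2 change with the same composition terms, the box had no effect past the threshold in human (-0.05, SE 0.05, interval -0.15 to 0.05, adjusted p = 0.33) or in mouse (-0.10, SE 0.07, interval -0.25 to 0.04, adjusted p = 0.31).

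H4C16 was the member with the firmest change, 3.07-fold lower in mESCs (log2 -1.62, SE 0.13, edgeR adjusted p = 5.94e-10), and its passages are given above. m.1320 had a larger estimate (-2.59, SE 0.84, edgeR adjusted p = 0.026), from 2.05, 0.740 and 0.612 in hESCs and 0.184, 0.344 and 0.0361 in mESCs. Lphn3, an adhesion receptor now named Adgrl3, gave 2.91, 1.81 and 1.68 in hESCs and 0.724, 0.887 and 1.38 in mESCs (-1.10, SE 0.34, edgeR adjusted p = 0.019). Without hESC passage 1 neither call stood (edgeR adjusted p = 0.215 for m.1320 at -1.84 and 0.172 for Lphn3 at -0.81), nor without mESC passage 3 for m.1320 (0.065) or mESC passage 1 or 2 for Lphn3 (0.056 and 0.067). m.2120, in an intron of C2, gave 2.50, 2.20 and 2.09 in hESCs and 0.985, 1.09 and 1.17 in mESCs (-1.06, SE 0.15, edgeR adjusted p = 6.42e-06).

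The 3 members that were higher in mESCs were MIR222HG, Uhrf2 and ENSG00000236352. MIR222HG, the host transcript of miR-221 and miR-222, gave 3.82, 3.65 and 3.56 in hESCs and 6.95, 6.83 and 7.47 in mESCs (0.95, SE 0.13, edgeR adjusted p = 4.90e-06). Uhrf2 gave 5.83, 5.94 and 6.08 in hESCs and 7.47, 7.67 and 11.2 in mESCs (0.56, SE 0.16, edgeR adjusted p = 0.012). ENSG00000236352 gave 0.966, 1.15 and 0.945 in hESCs and 1.64, 1.37 and 1.22 in mESCs (0.47, SE 0.16, edgeR adjusted p = 0.032), all under the active threshold. The calls of the last 2 did not stand when hESC passage 1 was left out (edgeR adjusted p = 0.066 and 0.099). For Uhrf2 the same held without hESC passage 2 (0.069), and for ENSG00000236352 without hESC passage 3 (0.144), mESC passage 1 (0.144) or mESC passage 2 (0.066).

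Cis effects, the difference between the human and the mouse sequence of a pair in the same cells, were fitted over 1597 pairs of tile 1 sequences. A pair was called at an adjusted p under 0.05 and a log2 difference of at least 1, since the sequences of a pair carry different barcodes. The box stood in the human sequence alone in 24 pairs, in the mouse sequence alone in 8 and in both in 21. Of the 32 pairs with the box in 1 species, 8 were called in hESCs (25.0%, beside 26.6% of all pairs), 8 in mESCs (25.0%, beside 23.0%) and 4 in both in the same direction (12.5%, beside 16.8%). The sequence with the box was the higher one in 10 of the 32 in hESCs and in 13 in mESCs. The median log2 ratio of the sequence with the box to that without was -0.26 in hESCs and -0.28 in mESCs. Its quartiles were -0.81 and 0.10 in hESCs, and in mESCs they were -0.75 and 0.20. With the longer core TATAAA these medians were -0.06 and 0.13. In the pairs with the box in human alone, the median difference in GC content, sequence with the box minus the other, was -3.12 percentage points.

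The sequences of such a pair often did not hold shared bases at the same place. A shared run of at least 12 identical bases was found in 15 of the 32 pairs. In 11 of the 15 it lay more than 5 bases apart in the 2 tiles. Of the 21 pairs with the box in both, 17 shared such a run, and in 1 of these (SLC2A1) it lay that far apart. The SLC2A1 run began at base 10 of the human and base 27 of the mouse tile. Its boxes began at bases 83 and 84, so the distance of a run need not be an offset of the tiles. Run length and distance were set after the data were seen. In HAND1 and ENSG00000289123 the run was shifted by 34 and 62 bases. This equals the distance between a TATAA elsewhere in the human tile (bases 121 and 24) and the box of the mouse tile (bases 87 and 86). In these pairs the TATAA was thus shared and the tiles were offset. The pair of m.1320 shares a run of only 11 bases, under the minimum of 12. It holds the TATAA at base 3 of the human and base 90 of the mouse tile, 87 bases apart, and an offset of these tiles was not tested. In 6 further pairs no run of 12 bases was shared in the same orientation, but 1 of at least 12 was shared with the reverse complement, so the tiles were read on opposite strands. Without these 6, of the remaining 26 pairs 7 were called in hESCs, 5 in mESCs and 3 in both, and the medians were -0.26 and -0.30. Among the 21 pairs with the box in both, ADAMTS9-AS1 was also read on opposite strands and was kept. Its longest run was 7 bases in the same orientation and 14 with the reverse complement.

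Of the 4 pairs called in both cell types, the sequence with the box was lower in 3. One is H1-10, a linker histone, whose mouse tile holds no TATAA.
H1-10 (hg19, chr3:129035128-129035172, minus strand): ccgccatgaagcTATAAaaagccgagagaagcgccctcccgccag
H1fx (mm9, chr6:87931630-87931674, minus strand): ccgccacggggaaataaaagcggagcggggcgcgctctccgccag
The human sequence gave 4.99, 4.63 and 5.12 in hESCs and the mouse sequence 12.7, 12.6 and 12.9. In mESCs they gave 3.08, 2.56 and 2.75, and 7.89, 7.39 and 8.32. The log2 difference of mouse over human was 1.38 (SE 0.12, edgeR adjusted p = 6.86e-08) in hESCs and 1.49 (SE 0.12, edgeR adjusted p = 2.72e-08) in mESCs, and the SE over barcodes was 0.34 and 0.33. The run of 33 bases that the tiles share begins at base 44 in both.

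In the pair h.1186 and m.1058 the human sequence with the box, shown above, gave 0.714, 0.723 and 0.829 in hESCs and the mouse sequence 1.97, 2.51 and 2.45 (mouse over human 1.61, SE 0.17, edgeR adjusted p = 4.97e-07, and 1.86 in mESCs). In HAND1, a transcription factor of heart and trophoblast development, the box was at base 87 of the mouse tile. The human tile gave 5.00, 5.13 and 5.23 in hESCs and the mouse tile 1.45, 2.22 and 1.93 (mouse over human -1.46, SE 0.16, edgeR adjusted p = 1.11e-06, and -1.72 in mESCs). The SE over barcodes was 0.38 and 0.44 for these pairs in hESCs. In the fourth pair, of the human sequence h.1453 in an intron of PPP3CA on its opposite strand, the sequence with the box was higher, but the pair is 1 of the 6 read on opposite strands. The mouse locus holds the box on its other strand, in the member m.1135, which shares a run of 20 bases with h.1453 from base 41 of both.
h.1453 (hg19, chr4:102200835-102200879, plus strand): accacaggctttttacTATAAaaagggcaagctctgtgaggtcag
m.1288 (mm9, chr3:136388311-136388355, plus strand): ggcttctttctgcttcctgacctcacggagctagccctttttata
m.1135 (mm9, chr3:136388327-136388371, minus strand): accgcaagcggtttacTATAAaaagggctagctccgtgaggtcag
The human sequence gave 3.32, 3.40 and 3.44 in hESCs and 3.04, 3.84 and 4.69 in mESCs, and the mouse sequence 0.907, 1.07 and 1.09, and 1.13, 0.976 and 1.10. The difference was -1.73 (SE 0.15, SE over barcodes 0.29, edgeR adjusted p = 6.22e-08) in hESCs and -1.85 in mESCs, and it compares the strands of the locus as well as the species. On the strand of the box, m.1135 gave 1.95, 1.47 and 1.98 in hESCs and 2.44, 1.47 and 1.53 in mESCs, all lower than the values of h.1453 in the same cell type, against which it was not tested.

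Where both species held the box, the typical difference within a pair was smaller. The median size of the log2 difference was 0.21 in hESCs and 0.31 in mESCs over the 21 pairs, against 0.56 and 0.48 over the 1544 pairs with the box in neither, and 19 and 18 of the 21 were within a log2 difference of 1. How far the tiles overlap was not measured in the pairs with the box in neither, and no test of the difference was made. The pairs called in both cell types were SLC2A1 and NQO1, with the mouse sequence higher in each. SLC2A1 gave 6.81, 7.18 and 6.63 in hESCs and Slc2a1 13.0, 13.6 and 16.4 (log2 1.06, SE 0.16, edgeR adjusted p = 2.40e-05). In mESCs they gave 4.06, 4.01 and 5.01, and 15.4, 15.4 and 21.7 (2.00, SE 0.16, edgeR adjusted p = 2.44e-08). Their tiles hold the same kinds of letters.
SLC2A1 (hg19, chr1:43424538-43424652, minus strand): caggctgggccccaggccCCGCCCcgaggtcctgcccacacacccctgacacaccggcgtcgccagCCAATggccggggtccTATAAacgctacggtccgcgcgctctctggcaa
Slc2a1 (mm9, chr4:118781295-118781409, plus strand): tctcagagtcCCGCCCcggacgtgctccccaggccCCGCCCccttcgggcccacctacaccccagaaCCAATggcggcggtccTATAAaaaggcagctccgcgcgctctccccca
CCAAT begins at base 67 and the box at base 83 in human, and at bases 68 and 84 in mouse. The mouse tile holds CCGCCC at bases 11 and 36 and the human tile at base 19. NQO1, a quinone reductase induced by oxidative stress, gave 2.08, 2.10 and 2.28 in hESCs, and Nqo1 4.62, 5.83 and 5.65 (1.32, SE 0.14, edgeR adjusted p = 3.90e-07).

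The general factors that act at the TATA box were present in both lines. Of 21 measured in hESCs 20 had a median above 1 CPM per kilobase, and of 20 in mESCs 19. TBP ranged from 13.5 to 18.3 over 12 hESC libraries and Tbp from 3.39 to 4.24 over 6 mESC libraries, which were annotated and normalized separately and were not tested against each other. TBPL2, the germline relative of TBP, was the factor at or near 0 in both, with a highest value of 0.03 in hESCs and 0 in mESCs. TAF7, a TFIID subunit, had the highest median, 66.5 in hESCs and 60.2 in mESCs. DRAP1, a subunit of the NC2 complex that holds TBP in check, was at 42.7 and Drap1 at 40.5.

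The genes at the members were read from the untransfected cells. RPLP0 was at a median of 635, H2AZ1, a histone variant, at 299, SNHG5 at 173 and RPL22L1 at 64.1, while H4C16 was at 0.64 in these poly(A)-selected libraries. In mESCs Rplp0 was at 1789, Rpl22l1 at 378 and Snhg5 at 125.8. Of 20 active human members with a counted gene 11 were above 1 (median 2.74), and of 22 that were not active 9 were (0.52). In mouse 9 of 12 active ones were above 1 (median 35.2), and 8 of 17 of those not active (0.54). The medians over all genes at members were 0.89 in human, against 0.54 for TATAA elsewhere and 0.95 without TATAA, and in mouse 2.64, 9.75 and 2.30. The mouse value for TATAA elsewhere rests on only 15 sequences with a counted gene (quartiles 0.10 and 54.1). The human value rests on 30 (quartiles 0.23 and 7.56).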

How the data were processed

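Counts per barcode of 13 MPRA libraries, 1 of plasmid DNA and 12 of RNA, were deposited by the authors, who trimmed single-end reads with cutadapt and matched the 11-base barcodes exactly, without molecular identifiers. Every one of the 239653 deposited DNA counts is an even number, against 56.0% to 59.3% of RNA counts, so 10 DNA counts may stand for fewer reads. A constant factor cancels in the scaled ratios. Gene counts of 18 RNA-seq libraries were made by the authors with featureCounts 2.0.0 per the labels, without strand. The labels name hg19 and mm10, while 13528 of 13533 tiles equal hg19 or mm9 at the listed coordinates, and these builds are printed. Counting error alone sets no interval here, since reads of 1 barcode are not independent.

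Counts were summed per sequence and passage over barcodes with 10 or more DNA counts, requiring 50% of barcodes, and divided by DNA counts and by the median random sequence. Tests used edgeR 4.0.16 (quasi-likelihood, DNA counts as offset) in R 4.3.3, and statsmodels 0.14.6 in Python 3.11.15, with DESeq2 1.42.0 as an alternative. The MPRAnalyze model of the study was not run. Scripts were tested on simulated data. Gene counts became CPM per kilobase. TAF9, Taf9, Taf4 and Tfcp2l1 had no single matching identifier. Members, gene lists and motifs were chosen with earlier results of these data known. Named sequences were, per species, the 5 highest and 3 lowest members and the 2 highest with TATAA elsewhere in the native cell type, the 4 largest called trans effects in each direction, the 4 largest cis effects in each direction called in both cell types, and the 3 highest random sequences with the box. Others were named after their values were seen. Motifs were exact letters on both strands.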

Additional observations from a re-analysis of the deposited data

Results flagged for a closer look

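In 34 tests over the 9 hESC transfections, 6 sequences had 1 library far from the other 8, where chance flags about 1 test in 20. All 6 lay in a library of hESC passage 1. The gap to the nearest other library, as a share of the whole range, was 0.553 for h.1453 (highest at 4.74, next 3.65), 0.511 for m.1288 (lowest at 0.789, next 0.996), 0.549 for Ddx39 (lowest at 6.55, next 7.41), 0.719 for Lphn3 (highest at 5.13, next 2.19), 0.556 for Cox10 (lowest at 11.8, next 13.97) and 0.627 for H1fx (highest at 15.3, next 13.4). The critical value for 9 libraries is 0.493. The same passage stood apart in the correlations over barcodes.

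In 2 pairs with the box in both species the sign of the log2 difference of mouse over human was opposite in the 2 cell types in every passage, and the difference between cell types was not tested. LRRN4CL moved from -0.20, -0.41 and -0.27 in hESCs to 0.26, 0.26 and 0.33 in mESCs, a difference of 0.57. SNHG5 moved from -0.09, -0.13 and -0.24 to 0.03, 0.20 and 0.04, a difference of 0.25. Neither pair passed the cis test in either cell type.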

How the results depend on the processing

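The difference between members and TATAA elsewhere in the linear model stayed positive under each alternative run, and its test was the least stable result. For human sequences in hESCs, human in mESCs and mouse in hESCs it was 0.25, 0.19 and 0.34 with a minimum of 50 DNA counts (adjusted p = 0.118, 0.152 and 0.101), 0.30, 0.26 and 0.31 with the window at base 70 to 100, 0.38, 0.37 and 0.29 from medians over barcodes, 0.18, 0.14 and 0.27 with squared terms and 0.22, 0.21 and 0.21 up to 60% GC. With the core TATAAA it was 0.25 and 0.20 for human sequences, and with 100 or more RNA counts 0.26 for human in mESCs. For mouse in mESCs it passed the test at 0.47 with no minimum on DNA counts, 0.40 at base 80 to 90, 0.56 with TATAAA, 0.37 with 100 or more RNA counts and 0.675 without covariates. Without 1 passage these ran from 0.34 to 0.37, 0.27 to 0.32, 0.32 to 0.40 and 0.33 to 0.35. The trans term of the box in human turned to 0.0197 without covariates (adjusted p = 0.702).

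The human median was 1.53 with TMM, 2.10 at base 80 to 90, 1.47 at base 70 to 100, 2.39 with TATAAA and 1.75 with 1 transfection per passage (1.53 to 1.61 without 1 passage). The human tile ratio was 0.21 with no DNA minimum, 0.51 at base 80 to 90, 0.72 with TATAAA and 0.51 from barcode medians (0.26 to 0.46 without 1 passage), and the mouse one 0.44, 0.43, 0.45 and 0.11 (0.30 to 0.40). With a log2 change of at least 1 in addition, 4 members had a trans call, 4 lower. By adjusted p alone 14 one-species pairs were called in both cell types, 11 with the box lower, 19 in hESCs and 21 in mESCs. At base 70 to 100, 5 had the box lower, and with TATAAA 1, with 4 called in mESCs. The median box ratio in hESCs was -0.12 with no DNA minimum, -0.45 with 50, -0.41 at base 80 to 90, -0.063 with TATAAA and -0.41 with 100 or more RNA counts (-0.36 to -0.24 without 1 passage). In mESCs it was -0.24 with no minimum, -0.32 at base 70 to 100 and 0.13 with TATAAA (-0.28 to -0.19). Without the 6 pairs read on opposite strands, a choice made after the data were seen, 5 pairs were called in mESCs. Except where an alternative changes the members, sequences or samples used, the cause was not tested. Of 291 values of these results under alternatives, 225 kept direction and call or stayed within the stated spread, 38 moved, 22 lost the call, 5 gained it and 1 reversed. Of 178 values of named sequences, 167 kept theirs and 11 lost the call.

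With the replicate number as a block, 35 members had a trans call in place of 30 (32 lower) and 4 one-species pairs a cis call as before. Deviations of equally numbered hESC and mESC passages correlated at 0.084, 0.030 and 0.081. Those of unequally numbered passages correlated at -0.096 to 0.056, highest for hESC passage 2 with mESC passage 3. All of these are small, and whether equally numbered passages share more than a number was not tested. DESeq2 gave 35 and 4. Among measured members, FOXI3 (402) and m.1320 (476) had the fewest DNA counts.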

Other observations

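The reverse letters TTATA at base 75 to 95 without TATAA there were held by 28 tile 1 sequences, all measured. Their median activity was 1.39 for the 18 human ones in hESCs (4 active) and 1.12 for the 10 mouse ones in mESCs (0 active). Counted over all tile 1 sequences, TTATA also had more starts at bases 81 to 90 (60) than in any other 10-base bin (7 to 29), although TATAA and TTATA can share bases, as in a run of TTATAA. In the linear model the reverse letters had a coefficient of -0.32 for mouse sequences in mESCs (SE 0.13, adjusted p = 0.058) and 0.01, -0.16 and -0.11 in the other combinations.

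Other letters were held by few members. TGACTCA, the letters bound by AP-1, was in 8 members (6.61%, against 4.44% of tile 1) with a median native activity of 1.01, and CACGTG, the E-box letters, in 7 (5.79%, against 4.45%) with a median of 1.46. TGACGTCA, bound by CREB, was in Errfi1 alone (0.826%, against 1.37%), and GCGCATGC, bound by NRF1, in 0 members against 1.69% of tile 1.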
